A study of Sus scrofa with 8 samples.

Results

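The proteasome genes of the pig were taken as the protein-coding genes of the RefSeq annotation of Sscrofa11.1 whose symbols start with PSMA, PSMB, PSMC, PSMD, PSME, PSMF or PSMG followed by a number. The rule found 49 genes among the 19487 protein-coding genes on chromosomes 1 to 18 and X. They comprised 7 alpha and 7 beta subunits of the constitutive core, the 3 immunoproteasome subunits PSMB8, PSMB9 and PSMB10, 2 tissue-restricted subunits (PSMA8 of the testis and PSMB11 of the thymus), 6 ATPases, 14 other genes of the regulatory particle, 4 activators, 1 inhibitor and 4 assembly chaperones. PSMC3IP, which codes for a partner of the meiotic recombinases and not for a proteasome subunit, was also taken in by its symbol.

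Chromatin immunoprecipitation with sequencing (ChIP-seq) was performed on untreated pig embryonic fibroblasts (PEFs), which were isolated from Large White fetuses aged 35 days and kept in culture. There was 1 condition, with 2 replicates each for H3K4me3, a histone mark of promoters, for H3K27ac, a histone mark of active promoters and enhancers, and for CTCF, a DNA-binding protein that insulates domains and anchors loops. The 6 peak lists, 1 per library, were compared around the annotated start of each gene, which is the 5′ end of its gene record (TSS). A gene was called for a mark when a peak lay within 1 kb of its TSS, and its value was the fold enrichment of the strongest such peak over the control.

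The proteasome is the protease that degrades ubiquitin-tagged proteins in every eukaryotic cell. Its core is a barrel of alpha rings around beta rings, and PSMB5, PSMB6 and PSMB7 are the catalytic beta subunits of the constitutive form. A regulatory particle caps the barrel, and there the PSMC ATPases unfold substrates while PSMD subunits bind and remove ubiquitin. In immune cells, or after interferon treatment, PSMB8, PSMB9 and PSMB10 take the places of PSMB5, PSMB6 and PSMB7, and the resulting immunoproteasome trims peptides for presentation on MHC class I.

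The bases upstream of a catalytic pair, of another immunoproteasome subunit and of both tissue-restricted subunits are printed first, because these genes carry the contrast described below. The sequences were read from the RefSeq genome of Sscrofa11.1, end at the base before the TSS and run 5′ to 3′ in the direction of the gene. Each is 300 bases long. Capitals mark exact matches, on either strand, to any of 9 short motifs, which were the antioxidant response element TGACNNNGC, the NF-Y box CCAAT, the GC box GGGCGG, the interferon-stimulated response element GAAANNGAA, the STAT site TTCNNNGAA, the ETS site CCGGAAG, the NRF1 site GCGCATGCG, the YY1 site AGATGGCGG and the TATA box TATAAA.
PSMB5, chr7:76014276-76014575, plus strand: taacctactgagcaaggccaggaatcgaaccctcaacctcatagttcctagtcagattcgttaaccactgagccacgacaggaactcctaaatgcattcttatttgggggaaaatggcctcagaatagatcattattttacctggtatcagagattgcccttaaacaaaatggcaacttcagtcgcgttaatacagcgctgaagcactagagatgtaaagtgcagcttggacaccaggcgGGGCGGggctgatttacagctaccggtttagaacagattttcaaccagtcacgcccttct
PSMB8, chr7:25061667-25061966, minus strand: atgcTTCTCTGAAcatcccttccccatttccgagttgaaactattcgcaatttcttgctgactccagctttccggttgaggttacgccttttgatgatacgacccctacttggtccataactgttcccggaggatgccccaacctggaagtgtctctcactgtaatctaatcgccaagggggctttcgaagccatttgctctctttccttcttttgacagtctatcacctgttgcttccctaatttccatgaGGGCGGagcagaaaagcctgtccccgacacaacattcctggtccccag
PSMB10, chr6:28547610-28547909, minus strand: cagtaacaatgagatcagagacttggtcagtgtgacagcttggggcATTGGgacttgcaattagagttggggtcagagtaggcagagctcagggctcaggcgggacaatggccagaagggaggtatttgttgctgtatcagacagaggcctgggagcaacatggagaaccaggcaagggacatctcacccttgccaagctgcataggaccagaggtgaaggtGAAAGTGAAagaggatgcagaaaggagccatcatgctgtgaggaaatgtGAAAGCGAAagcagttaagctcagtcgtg
PSMA8, chr6:110798765-110799064, plus strand: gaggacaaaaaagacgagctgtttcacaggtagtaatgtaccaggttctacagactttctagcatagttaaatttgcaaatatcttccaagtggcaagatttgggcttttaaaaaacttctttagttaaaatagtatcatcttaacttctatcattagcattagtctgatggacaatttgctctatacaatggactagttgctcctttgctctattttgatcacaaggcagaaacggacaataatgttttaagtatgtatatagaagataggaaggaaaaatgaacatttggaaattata
PSMB11, chr7:76006729-76007028, minus strand: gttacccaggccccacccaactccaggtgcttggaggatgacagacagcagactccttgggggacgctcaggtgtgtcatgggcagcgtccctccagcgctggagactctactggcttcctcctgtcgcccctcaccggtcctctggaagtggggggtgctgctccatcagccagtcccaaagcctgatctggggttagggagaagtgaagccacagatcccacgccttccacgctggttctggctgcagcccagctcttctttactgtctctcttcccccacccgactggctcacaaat

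The PSMB5 window held 1 GC box, 60 bases before the TSS, and the PSMB8 window held 1 GC box at 48 bases and 1 STAT site at 296 bases. The PSMB10 window had no GC box and held 2 interferon-stimulated response elements, whose first bases were 78 and 29 bases before the TSS. The PSMB8 window held no interferon-stimulated response element. Such motifs were not limited to immunoproteasome genes. The window of the constitutive PSMB6, not printed here, held 1 interferon-stimulated response element at 69 bases and 1 STAT site at 30 bases. The windows of PSMA8 and PSMB11 held none of the 9 motifs. This did not set them apart, since the windows of PSMA3, PSMD6, PSMD7, PSMD11, PSME3 and PSMG2 held none either. Of these, all but PSMD6 carried both histone marks at the start. The share of such windows over all genes was not counted. A match of this kind describes letters and not a bound site.

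The start of PSMB9 was shown only by a short site, because TAP1, which codes for a chain of the peptide transporter of antigen presentation, starts on the opposite strand 144 bp from it. Here the capitals mark 2 overlapping matches to the interferon-stimulated response element, which began 163 and 157 bases before the PSMB9 TSS. Both lie inside the annotated TAP1 gene, just past its start.
PSMB9, chr7:25071964-25071990, plus strand: ttatggGAAAGGGAAAACGAAagcggc

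Among the 49 windows of 300 bases, 7 held an interferon-stimulated response element (14.3%, against 8.4% of the 19484 protein-coding windows that could be read), and these were PSMA4, PSMB6, PSMB9, PSMB10, PSMC4, PSMD14 and PSMG4. The ETS site was found in 11 windows (22.4% against 8.32%), the STAT site in 7 (14.3% against 7.45%) and the NRF1 site, whose letters overlap on both strands, in 3 (6.12% against 1.46%). The GC box was found in 25 windows (51% against 47.7%) and the NF-Y box in 16 (32.7% against 35.8%). Most of these genes are marked, and against the 11476 protein-coding genes with both histone marks the 46 marked proteasome genes had a lower share of the GC box (54.3% against 63.1%) and a higher share of the ETS site (23.9% against 12.7%). The TATA box was found in 3 windows (6.12% against 11.8%), and the YY1 site in 1, that of PSMB1 (2.04% against 0.785%). The antioxidant response element, the element through which NFE2L1 and NFE2L2 act on proteasome genes, was found in 2 windows (4.08% against 11.6%), both shown here with the match in capitals.
PSMC5, chr12:15106339-15106359, minus strand: agctccTGACCTCGCgtggcc
PSMD14, chr15:68107279-68107299, plus strand: cggcagGCGTTGTCAgtccgg

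The windows of marked genes were richer in CpG. The median ratio of observed to expected CpG was 0.751 over the 49 windows and 0.604 over all protein-coding genes. The protein-coding genes with both histone marks had a median of 0.748, and those without had 0.309. PSMA8 (0.254) and PSMB11 (0.291) were near the second of these medians. PSMC6 (0.249), PSME2 (0.238), PSMB10 (0.168), PSMD9 (0.139) and PSMA3 (0.105) were lower still, and all of them carried both histone marks. PSMD6, which had no histone mark at its annotated start, had a ratio of 0.795.

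Most proteasome genes were marked in PEFs. H3K4me3 was called at the start of 46 of 49 genes in both replicates (93.9%, against 68.9% of all protein-coding genes). H3K27ac was called at the same 46 genes in both replicates (93.9% against 60.7%), so that 46 genes carried both marks in all 4 histone lists, which 58.9% of protein-coding genes did. The 3 genes without were PSMA8, PSMB11 and PSMD6, and they had no CTCF peak at the start either. H3K4me3 was missing in both replicates at 29.7% of protein-coding genes. A start with no peak in any of the 6 lists was found for 26.1% of protein-coding genes. The lowest −log10 q-value at any of the 46 starts was 138 and 94.5 in the H3K4me3 lists and 9.99 and 14.8 in the H3K27ac lists.

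**Figure D1:**
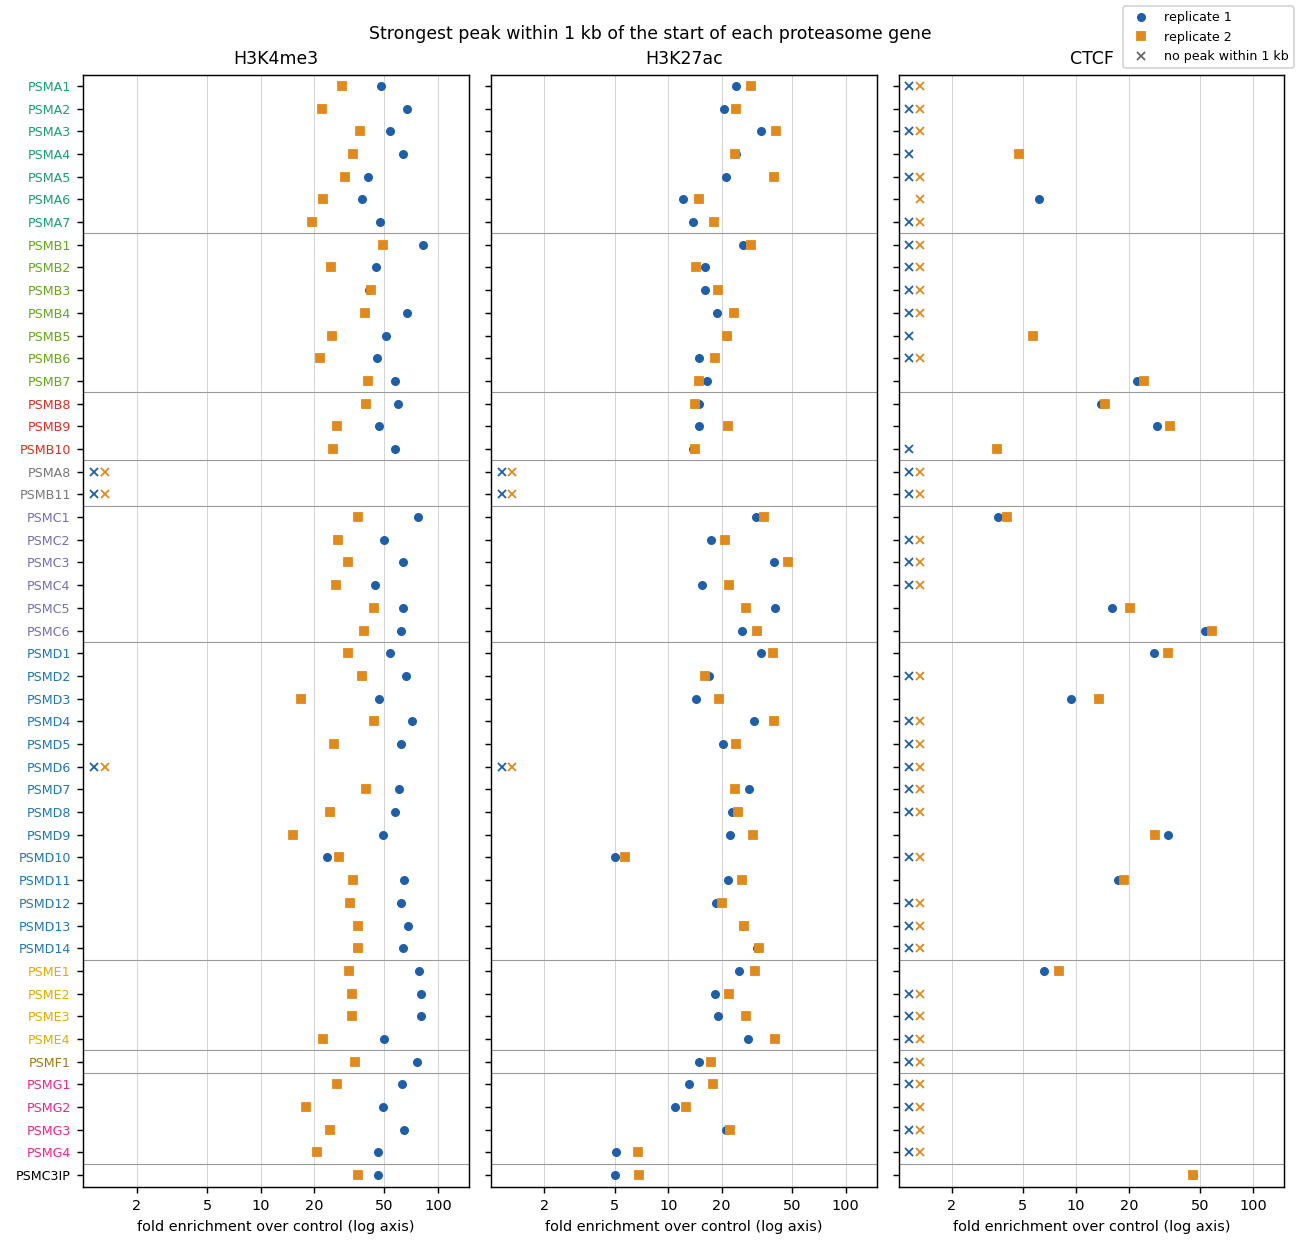
Fold enrichment over control (log axis) of the strongest peak within 1 kb of the start of each of the 49 genes, with H3K4me3, H3K27ac and CTCF in separate panels, replicate 1 as circles, replicate 2 as squares and crosses at the left edge where a list had no peak. Gene names are coloured and separated by role, PSMA8, PSMB11 and PSMD6 have crosses in all panels, and PSMD10, PSMG4 and PSMC3IP stand apart on the left of the H3K27ac panel.

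The peaks were somewhat higher than at the median marked gene. The median fold enrichment of H3K4me3 over the 46 genes was 58.5 in replicate 1 and 31.1 in replicate 2, where all marked protein-coding starts had medians of 52.0 and 25.2. The medians of H3K27ac were 19.8 and 22.8, beside 16.4 and 19.2. The H3K4me3 libraries thus differed in scale at all genes, and heights were compared only within a list. As a percentile among the marked protein-coding starts of the same list, the median gene stood at 64.0 and 73.7 in the H3K4me3 lists and at 63.5 and 62.2 in the H3K27ac lists.

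The genes varied among themselves. H3K4me3 ranged from 23.6 to 82.5 in replicate 1 and from 15.3 to 49.0 in replicate 2, and H3K27ac from 5.02 to 40.2 and from 5.72 to 47.3. The order of the genes was much the same in both H3K27ac lists (Spearman's rho 0.897 across 46 genes) and less so in both H3K4me3 lists (0.490), so neighbouring H3K4me3 ranks do not separate genes. Between H3K4me3 and H3K27ac the rho across these genes was 0.494 in replicate 1 and 0.245 in replicate 2, and across the 11476 protein-coding genes with both marks 0.342 and 0.441. These are descriptions across genes, which are not independent and share libraries.

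The median H3K4me3 peak was 2927 and 3095 bp wide (2740 and 2902 bp over all marked protein-coding starts), and the median H3K27ac peak 2455.5 and 2528 bp (2441 and 2421 bp). H3K4me3 summits lay downstream of the TSS at 38 of 46 genes in each list (82.6%, against 81.8% and 79% of all marked protein-coding starts), and their median position was 299 and 623 bp downstream (339 and 477 bp over all). H3K27ac summits lay downstream at 41 and 39 genes (89.1% and 84.8%, against 71% and 72.5%), with median positions of 288 and 244 bp (283 and 263 bp over all). Every one of the 46 genes had a single peak per histone list at its start, which was usual. Several peaks were found at only 107 of 13563 and 109 of 13567 marked protein-coding starts for H3K4me3. For H3K27ac they were found at 178 of 11947 and 206 of 12213. The peak covered the TSS itself in 45 and 46 of 46 genes for H3K4me3 (97.8% and 100%, against 92.2% of all marked starts in each list) and in all 46 in both H3K27ac lists (88.9% of all marked starts in each). The exception was PSMA3, whose replicate 1 peak lay 4 bp away.

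**Figure D2:**
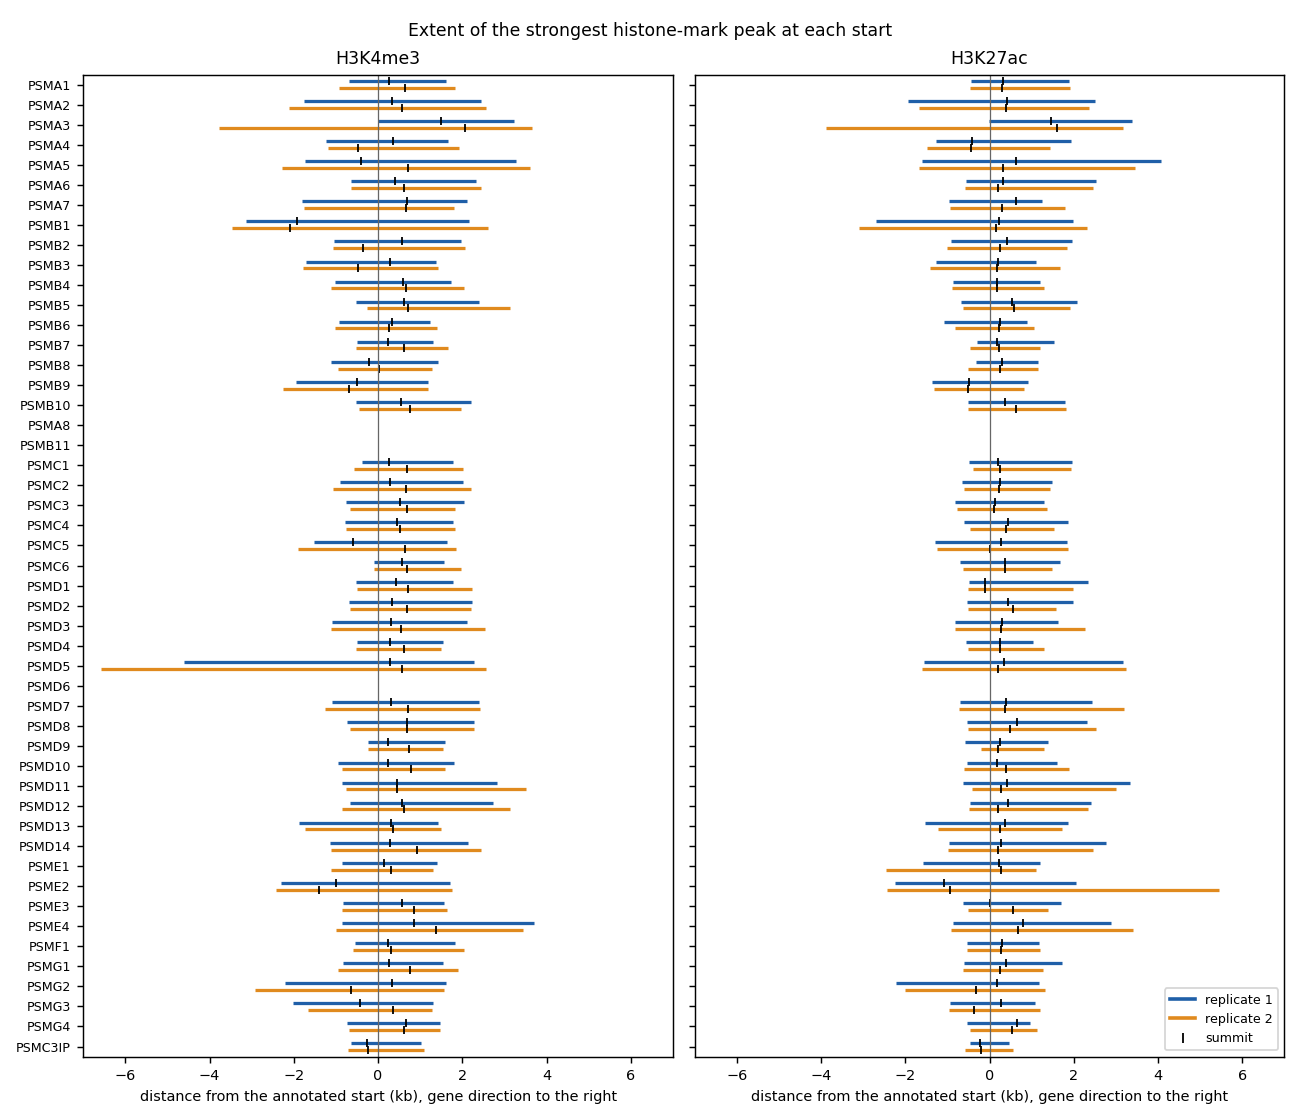
Extent of the strongest H3K4me3 (left) and H3K27ac (right) peak at each start, in kb from the annotated TSS with the gene running to the right, for replicate 1 (upper bar) and replicate 2 (lower bar), with the summit as a tick. Most bars start within 2 kb upstream and end within 3 kb downstream, PSMD5 has the longest H3K4me3 bars and the rows of PSMA8, PSMB11 and PSMD6 are empty.

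All 14 constitutive core subunits carried both histone marks in all 4 lists, where 58.9% of all protein-coding genes did. The 7 alpha subunits, which form the outer rings and the gate, had H3K4me3 between 37.5 and 67.0 in replicate 1 and between 19.4 and 36.6 in replicate 2. Their H3K27ac lay between 12.1 and 33.4 and between 15.0 and 40.8. PSMA3 was the highest of them for H3K27ac, with 33.4 and 40.8, and PSMA6 the lowest, with 12.1 and 15.0. PSMA6 was also among the 3 lowest of all 46 genes by the mean of both H3K4me3 lists, with 37.5 (rank 45) in replicate 1 and 22.4 (rank 39) in replicate 2.

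The 7 constitutive beta subunits, which form the inner rings, had H3K4me3 between 41.1 and 82.5 and between 21.7 and 49.0, and H3K27ac between 14.9 and 26.3 and between 14.3 and 29.2. PSMB1, a beta subunit without proteolytic activity, had the highest H3K4me3 of all 46 genes in both lists, with 82.5 and 49.0. Its H3K4me3 summit lay 1927 and 2101 bp upstream of the TSS, whereas its H3K27ac summit lay 224 and 159 bp downstream. PSMB1 starts within 1 kb of TBP, the gene of the TATA-binding protein, which runs on the opposite strand, and the marks of both genes cannot be told apart.

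The 3 immunoproteasome genes also carried both histone marks in all 4 lists in these untreated cells, as did 58.9% of all protein-coding genes. PSMB8 had H3K4me3 of 59.4 and 39.5 and H3K27ac of 14.9 and 14.1. PSMB9 had 46.4 and 27.1 for H3K4me3 and 14.9 and 21.6 for H3K27ac. PSMB10 had 57.6 and 25.7 for H3K4me3 and 13.8 and 14.1 for H3K27ac. Each of these values fell within the range of the 14 constitutive core subunits except the replicate 2 H3K27ac of PSMB8 and PSMB10, which was just below the lowest of them, 14.3 at PSMB2.

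Each immunoproteasome subunit can be set beside the constitutive subunit it replaces. PSMB5, the chymotrypsin-like subunit that PSMB8 replaces, had H3K4me3 of 51.2 and 25.3 and H3K27ac of 21.3 and 21.4. The ratio of PSMB8 to PSMB5 was therefore above 1 for H3K4me3 (1.16 and 1.56) and below 1 for H3K27ac (0.70 and 0.66) in both replicates. PSMB6, the caspase-like subunit that PSMB9 replaces, had 45.4 and 21.7 for H3K4me3 and 14.9 and 18.3 for H3K27ac. PSMB9 reached 1.02 and 1.25 times these H3K4me3 values and 0.996 and 1.18 times these H3K27ac values. The PSMB9 peaks were also those of TAP1, and their summits lay inside TAP1. They were 504 and 697 bp upstream of the PSMB9 TSS for H3K4me3 and 501 and 510 bp for H3K27ac. PSMB7, the trypsin-like subunit that PSMB10 replaces, had 57.4 and 40.5 for H3K4me3 and 16.5 and 14.9 for H3K27ac. PSMB10 reached 1.00 and 0.633 times the H3K4me3 values of PSMB7 and 0.832 and 0.945 times its H3K27ac values. PSMB8 was thus below PSMB5, and PSMB10 below PSMB7, in both H3K27ac lists, but PSMB10 and PSMB7 were close in replicate 2 (14.1 and 14.9). With 2 replicates an exact permutation test cannot separate such pairs, and none was run.

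Seen as percentiles, PSMB8 and PSMB10 ranked higher for H3K4me3 than for H3K27ac. PSMB8 stood at percentile 66 and 94.3 among H3K4me3 starts and at 43.4 and 32.4 among H3K27ac starts. PSMB10 stood at 62.0 and 51.7 for H3K4me3 and at 38.5 and 32.7 for H3K27ac. PSMB9 did not, with 39.3 and 57.6 for H3K4me3 and 43.1 and 58.4 for H3K27ac. Similar differences were seen at genes outside the immunoproteasome, such as PSMD2, and the mean difference was larger at PSMC3IP and PSMF1 than at PSMB8.

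**Figure D3:**
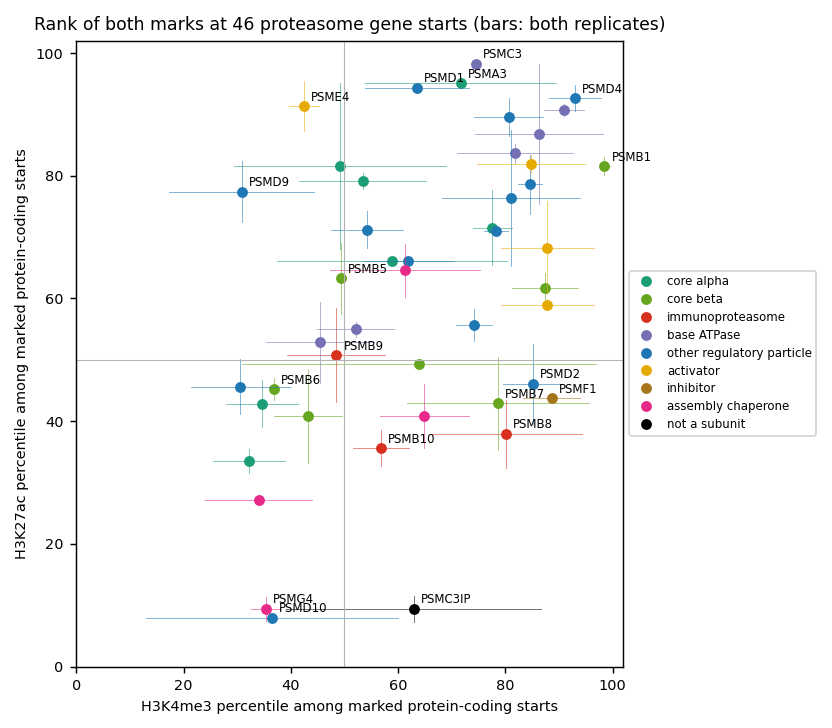
Mean percentile of H3K4me3 (x axis) and H3K27ac (y axis) among the marked protein-coding starts for each of the 46 genes, coloured by role, with thin lines joining replicates 1 and 2 and grey lines at the 50th percentile. PSMC3, PSMD4 and PSMB1 lie at the upper right, PSMD10, PSMG4 and PSMC3IP at the bottom, and the 3 immunoproteasome genes at or below the middle of the H3K27ac axis.

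PSMB8 and PSMB9 lie in the MHC region of chromosome 7, in a row with the genes of the peptide transporter. PSMB8 (chr7:25058456-25061666, minus strand) starts 10467 bp from the start of PSMB9 (chr7:25072133-25077508, plus strand), and TAP1 fills the interval between them. The peaks at the start of PSMB9 were the same intervals as those at TAP1, so the values of both genes are identical and cannot be told apart. Each of the PSMB8, PSMB9 and TAP2 starts carried all 3 marks in both replicates. TAP2 had H3K4me3 of 46 and 19.6, H3K27ac of 16.1 and 20.8 and CTCF of 30.7 and 35.3.

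CTCF was also present along this row in both replicates. PSMB9 had CTCF peaks of 28.5 and 33.9 with summits 133 and 129 bp inside the gene. PSMB8 had CTCF peaks of 13.9 and 14.6, with summits 702 and 705 bp upstream and the nearest edge 456 and 407 bp from the TSS. PSMB10, on chromosome 6, had a CTCF peak in replicate 2 only, of 3.56. Of the constitutive partners, PSMB7 had CTCF in both replicates (22.2 and 24.1), PSMB5 in replicate 2 only (5.7), and PSMB6 in neither.

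The 2 tissue-restricted subunits lacked all 3 marks at the start, as did 26.1% of all protein-coding genes. PSMA8, the alpha subunit of the spermatoproteasome, lies at chr6:110799065-110836937, and the nearest H3K4me3 peaks ended 8158 and 8167 bp upstream of its TSS, at the start of SS18. Its nearest H3K27ac peaks were 8187 and 8173 bp away, at the same place. PSMB11, the beta subunit of the thymoproteasome of cortical epithelium, lies at chr7:76005609-76006728 on the minus strand, 7848 bp from the start of PSMB5. Its nearest H3K4me3 peaks were 7324 and 7589 bp away and its nearest H3K27ac peaks 7171 and 7208 bp away, and both were the peaks of PSMB5. A missing peak says that the enrichment did not pass the authors' threshold, and not that the mark was absent.

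The germ cell genes DDX4, DAZL, SYCP1, SYCP3 and STRA8 had no H3K4me3 or H3K27ac peak at the start in both replicates either (0 of 5). The nearest STRA8 peaks lay beyond 1 kb, at 1075 and 1061 bp for H3K4me3 and at 1514 and 1311 bp for H3K27ac. The fibroblast genes listed for comparison had both marks at 11 of 11 starts. Of 7 blood genes, 1 had H3K4me3 (CD14) and 2 had H3K27ac (CD14 and SPI1) in both replicates. Of 5 epithelial genes, 4 had H3K4me3 and none H3K27ac, and among 4 endothelial genes 1 had H3K4me3 (KDR). Of 3 muscle genes, 2 had H3K4me3 (MYOD1 and MYF5) and 1 had H3K27ac (MYOG). Some counted H3K4me3 peaks were weak, such as those of FN1 (3.13 and 5.38), KRT8 (7.65 and 3.94) and MYOD1 (5.74 and 5.42). Over all protein-coding genes, the shares were 68.9% for H3K4me3, 60.7% for H3K27ac and 58.9% for both. The part of other cell types in the marks was not tested.

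**Figure D4:**
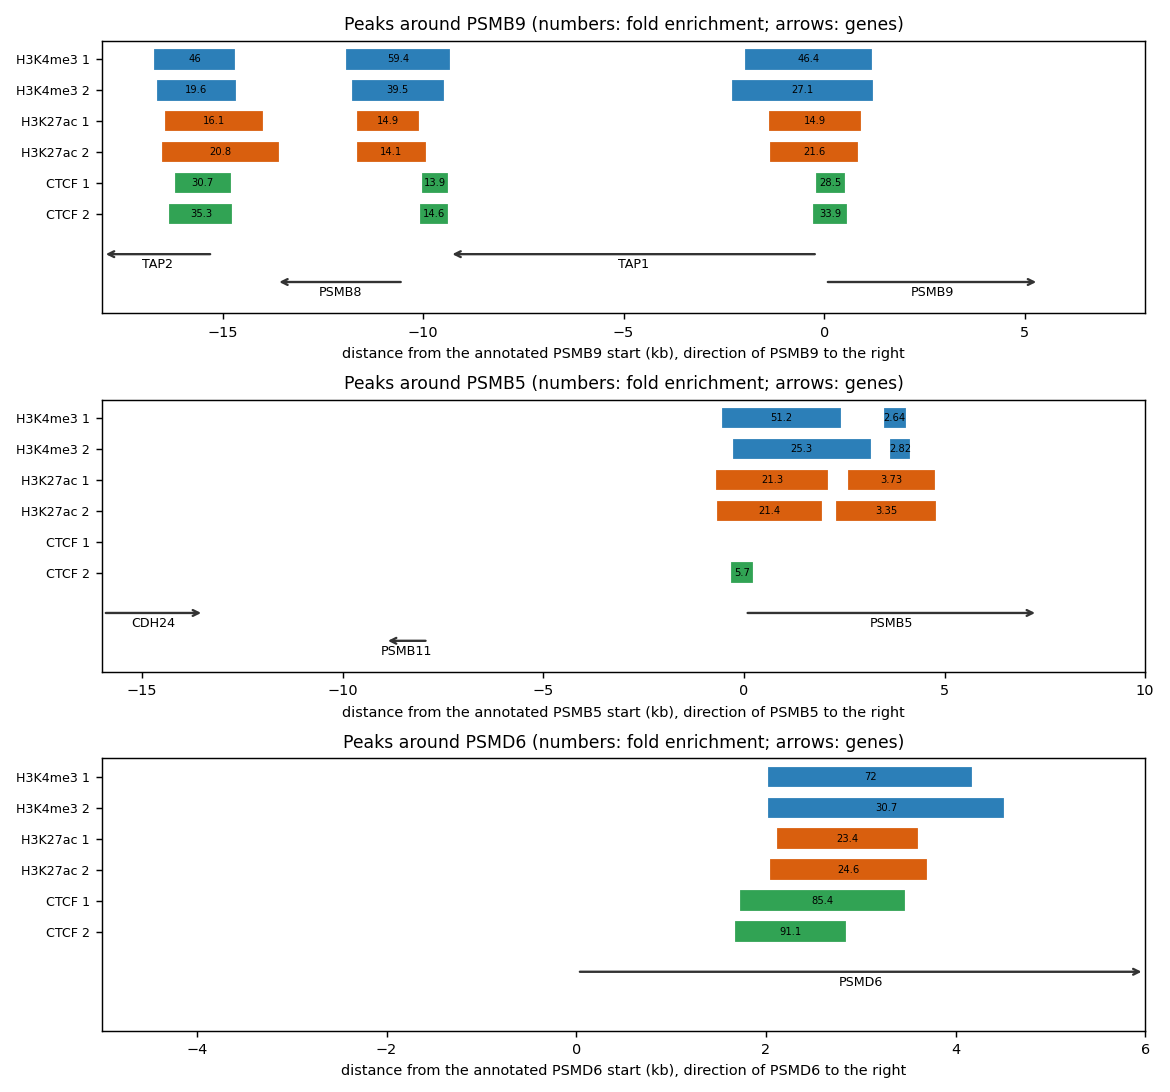
Peaks of the 6 lists around PSMB9 (top), PSMB5 (middle) and PSMD6 (bottom), in kb from the annotated start with the named gene running to the right, with fold enrichment written in each bar and genes drawn as arrows. PSMB9, PSMB8 and TAP2 starts hold all 3 marks, PSMB11 has no peak between it and PSMB5, and the PSMD6 peaks begin about 2 kb inside the annotated gene.

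PSMD6, a subunit of the lid of the regulatory particle, was the third gene without a peak, but its marks lay further inside the gene. The annotation gives it a single transcript on the minus strand of chromosome 13, with a first exon of 2478 bp (chr13:45527004-45529481). The median first exon of the proteasome genes was 186.5 bp and that of all protein-coding genes 271 bp, and 95.8% of genes had a shorter first exon than PSMD6. Its coding sequence starts at position 45527331, which is 2150 bp from the annotated TSS, and peaks of all 6 lists covered that position. H3K4me3 there had a fold enrichment of 72.0 and 30.7. The other 13 regulatory particle genes of the PSMD series ranged from 23.6 to 71.4 and from 15.3 to 43.5, so the replicate 1 value was just above them and the replicate 2 value among them. H3K27ac at PSMD6 was 23.4 and 24.6, inside the ranges of those genes, 5.02 to 33.5 and 5.72 to 39.3.

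The window of 300 bases before the annotated PSMD6 start was 92.3% repeat sequence, as the lower-case letters of the RefSeq genome mark it. It was the only one of the 49 windows with at least 50% (2.04%, against 10.2% of all protein-coding windows). The window before the coding start had 39.7% of such bases. Its observed to expected CpG ratio was 0.650, lower than the 0.795 of the window before the annotated start. PSMA3 had the next longest first exon, of 1384 bp, and its summits lay between 1456 and 2053 bp downstream of the TSS.

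Of the CTCF peaks described here, those of PSMD6 had the highest fold enrichment. Its peaks at the coding start had a fold enrichment of 85.4 and 91.1, with summits 39 and 14 bp upstream of the first coding base. Set among the CTCF peaks at protein-coding starts, these values stood at percentile 99.97 and 99.93. The peak did not count as a peak at the start, because it ended more than 1 kb from the annotated TSS.

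The 6 ATPases of the base all carried both histone marks, beside 58.9% of all protein-coding genes. H3K4me3 lay between 44.1 and 77.6 in replicate 1 and between 26.6 and 43.9 in replicate 2, with medians of 62.7 and 33.4. H3K27ac lay between 15.6 and 40.2 and between 21.0 and 47.3, with medians of 28.5 and 29.5, where the 14 constitutive core subunits had 19.6 and 22.4. The ranges of both groups overlapped. PSMC3 had the highest mean H3K27ac of all 46 genes (39.5 and 47.3). PSMC1 was among the 3 highest by the mean of both H3K4me3 lists (77.6 and 35.6), but had rank 5 in replicate 1 and rank 12 in replicate 2.

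The other genes of the regulatory particle are of several kinds. PSMD1 and PSMD2 code for its large scaffold subunits, PSMD4 for a ubiquitin receptor, PSMD14 for the enzyme that removes ubiquitin, and PSMD5, PSMD9 and PSMD10 for chaperones of its assembly. The 13 with a peak at the start had median H3K4me3 of 61.6 and 32.1 and median H3K27ac of 22.4 and 24.7. PSMD4 was high for both marks, with H3K4me3 of 71.4 and 43.5 and H3K27ac of 30.3 and 39.3. PSMD1 had H3K27ac of 33.5 and 38.7. PSMD2 had H3K27ac of 17 and 16.1 beside H3K4me3 of 66.5 and 37.3.

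Some assembly chaperones stood at the low end for H3K27ac. PSMD10, on the X chromosome, had the lowest mean H3K27ac of all (5.02 and 5.72). Its mean H3K4me3 was also the lowest, but this rested on replicate 1, where it had 23.6 and rank 46 of 46, whereas in replicate 2 it had 27.7 and rank 27. PSMG4 had H3K27ac of 5.09 and 6.77 beside H3K4me3 of 45.7 and 20.8. The 4 PSMG genes, whose products pair the alpha subunits of the core during assembly, had median H3K27ac of 12.0 and 15.3 and median H3K4me3 of 56.0 and 22.7. Not all chaperone genes were low, since PSMG3 had H3K27ac of 21.3 and 22.2 and PSMD9 had 22.4 and 30.2. PSMC3IP, the gene that is not a subunit, had H3K27ac of 5.02 and 6.87 and H3K4me3 of 46.2 and 35.4. PSMD10, PSMG4 and PSMC3IP were apart from the rest, and the next lowest mean H3K27ac was 11.8 at PSMG2.

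The activators PSME1 and PSME2, which form the interferon-inducible cap of the core, had H3K4me3 of 77.9 and 31.4 and of 80.4 and 32.6. Their H3K27ac was 25.1 and 30.8 at PSME1 and 18.4 and 22.1 at PSME2. Both genes lie on chromosome 7 and face each other with starts 9961 bp apart. The PSME2 peaks covered its TSS, but their summits lay upstream of it. They were 1005 and 1407 bp away for H3K4me3 and 1091 and 934 bp away for H3K27ac. PSME3, a nuclear activator, had H3K4me3 of 80.3 and 32.7 and H3K27ac of 19.1 and 27.5. PSME4, which codes for a large activator that acts without ATP, had H3K4me3 of 49.6 and 22.6 beside H3K27ac of 28.3 and 40.1. PSMF1, the inhibitor, had H3K4me3 of 76.7 and 34.2 and H3K27ac of 14.8 and 17.5.

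The widest H3K4me3 peaks were those of PSMD5, with 6886 and 9126 bp, and PSMB1 was next by the mean of both replicates, with 5281 and 6094 bp. In replicate 2 the PSMA3 peak, of 7435 bp, was wider than that of PSMB1 (3229 bp in replicate 1). Within 5 kb of the TSS, H3K27ac covered most at PSME2, with 5874 bp as the mean of both replicates, and next at PSMA5, with 5400 bp. At PSME2 the H3K27ac peak was 4308 bp in replicate 1 and 7884 bp in replicate 2, where it ran on past the start of the neighbouring gene EMC9. PSMD4, next after PSMB1 in mean H3K4me3 fold enrichment (rank 7 in replicate 1 and rank 3 in replicate 2), had a mean H3K4me3 width of 2021 bp.

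CTCF was called at 12 of 49 starts in both replicates (24.5%, against 17.9% of all protein-coding genes). Its median fold enrichment there was 17.3 and 18.8 over the 13 and 15 genes with a peak in each list, beside 17.2 and 16.8 over all protein-coding starts with a peak. PSMC6 had the highest values of the 12, with 53.8 and 58.9, and PSMC3IP the next, with 45.9 and 45.7. PSMD9 (33.2 and 27.9), PSMD1 (27.7 and 32.9), PSMD11 (17.3 and 18.8), PSMC5 (15.9 and 20.2) and PSMD3 (9.43 and 13.6) followed, together with PSMB7, PSMB8 and PSMB9. PSME1 (6.63 and 7.99) and PSMC1 (3.61 and 4.08) were the lowest. PSMA6 had a peak in replicate 1 only, and PSMA4, PSMB5 and PSMB10 in replicate 2 only. None of the 4 PSMG genes had CTCF at the start.

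Some of these CTCF peaks held the core letters of the CTCF motif within 100 bp of the summit. AGNNGGCNC, on either strand, was found at 32% and 31% of all CTCF summits in replicates 1 and 2 and in 8.15% and 8.01% of windows taken 1 kb away. Of the 13 and 15 CTCF peaks at proteasome genes, 5 and 4 held it. The sites of 3 genes with CTCF in both replicates are shown as 29 bases with the core letters in capitals, in the direction of the motif.
PSMB9, chr7:25072266-25072294, minus strand: cacgcccgccAGGGGGCGCccgggtccgc
PSMD1, chr15:131807299-131807327, plus strand: cccaagcagcAGGTGGCGCtgcgaacacc
PSMC3IP, chr12:20243725-20243753, minus strand: cttcgcacacAGGGGGCGCtcagcacatt

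The site of PSMD1 was centred on the replicate 1 summit, and those of PSMB9 and PSMC3IP were 14 and 15 bp from it. PSMC6 and PSMD6, which had the highest CTCF values, held no match to these letters, which says only that the letters were not in those windows.

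Some proteasome genes shared their start with another gene. A TSS on the opposite strand lay within 1 kb at 17 of 49 genes (34.7%, against 17.4% of all protein-coding genes), and a protein-coding one at 10 (12.9% of all). Among them were PSMA2 with MRPL32, PSMB1 with TBP, PSMB9 with TAP1, PSMC2 with DNAJC2, PSMC5 with FTSJ3, PSMD13 with SIRT3 and PSMG2 with CEP76. The peaks at such starts could not be assigned to either gene alone.

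Of 26 listed genes, which code for ubiquitin, shuttle factors, proteasome-bound enzymes and transcription factors of proteasome genes, 24 were protein-coding in the annotation, and 21 of these had H3K4me3 and H3K27ac at the start in both replicates (58.9% of all protein-coding genes). The exceptions were SEM1, a small lid subunit, AKIRIN2, which brings proteasomes into the nucleus, and NGLY1, which processes NFE2L1. In the 4 histone lists the nearest peaks lay between 1070 and 1547 bp from the NGLY1 start. For AKIRIN2 they lay between 4072 and 4349 bp away. For SEM1 they lay between 90727 and 170430 bp away, while CTCF peaks lay 341 and 367 bp from its start. NFE2L1, the transcription factor that raises proteasome genes when proteasome activity falls, had H3K4me3 of 46.2 and 25.4 and H3K27ac of 33.2 and 34.4. ADRM1, a ubiquitin receptor, had H3K4me3 of 45.1 and 22.3 and H3K27ac of 19.9 and 25.1.

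Of 13 genes of antigen presentation and interferon signalling, 11 had H3K4me3 and 10 had H3K27ac at the start in both replicates. NLRC5 and CIITA, the transactivators of MHC class I and class II genes, had neither within 1 kb. Their nearest histone-mark peaks lay between 3812 and 4270 bp away for NLRC5 and between 4790 and 5232 bp away for CIITA. Over all protein-coding genes, 68.9% had H3K4me3 and 60.7% had H3K27ac. IRF8, a regulator of immune cells, had H3K4me3 only, with 27.6 and 12.6. IRF1, which binds interferon-stimulated response elements, had H3K27ac of 39.0 and 44.7. B2M, the light chain of MHC class I, had H3K4me3 of 11.7 and 9.86, lower than any of the 46 marked proteasome genes in each list.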

How the data were processed

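The 6 ChIP-seq peak lists (H3K4me3, H3K27ac and CTCF, 2 replicates each) were grouped by the sample titles. Per the study's methods, the authors used bowtie2 for mapping, samtools to keep fragments whose ends both mapped uniquely, Picard against duplicates, and MACS2 for narrow peaks of each library. The submitters' notes name Sscrofa11.1. In the deposited lists the columns of a peak are its score, its fold enrichment as a ratio to the control, and its p-value and q-value as −log10. The score and the −log10 p-value were not used. Lists hold no read counts, so the depth behind a peak is unknown and no interval was computed.

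Peaks were joined to RefSeq gene starts with Python 3.11.15, NumPy 2.4.6 and SciPy 1.17.1, and the joining and motif search were tested on simulated data. With 1 condition no test was run, and counts and medians are set beside those of all protein-coding genes. Percentiles rank a start among the marked protein-coding starts of its list. Genes were named by role, presence of marks, CTCF in both replicates, and highest, lowest and widest values. Members and lists were chosen with earlier results of these data known. PSMF1, PSME3, PSME4, PSMG2, PSMG3, PSMD2 and the genes of other lists given with values were chosen after their values were seen. One listed gene, ECPAS, was matched under the older symbol KIAA0368. Whether replicates are separate cultures is not stated, so their spread may be technical. Alternatives were the TSS distance, summits, transcript starts, a −log10 q-value of at least 5 and single replicates. The 2 input samples were not analysed here.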

Additional observations from a re-analysis of the deposited data

How the results depend on the processing

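No paired analysis was possible because every result is a count or a median that comes from no test. Of 56 alternatives to 10 results, 52 stayed within 1.5 times the count or within the spread between replicates. For the median fold enrichment, leaving out a replicate was judged by the spread of the same 2 replicates, so staying within it says little. The median covered length of H3K4me3 was 3009 bp and became 3147 bp when all peaks within 5 kb were counted, and that of H3K27ac was 2568.25 bp and became 3148 bp. When replicate 1 or replicate 2 was left out, the covered length ranged from 2927 to 3095 bp for H3K4me3 and from 2455.5 to 2528 bp for H3K27ac, and the median fold enrichment from 31.1 to 58.5 and from 19.8 to 22.8. The number of genes with CTCF, 12 in both replicates, was 13 and 15 in the single lists, 16 within 5 kb and 11 with a −log10 q-value of at least 5. The genes with H3K4me3 numbered 42 by summits alone and 47 within 5 kb, and those with H3K27ac 44 and 47. Opposite-strand neighbours were 17 within 1 kb and 10 when protein-coding neighbours alone were counted.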

Other observations

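Beyond the start, 27 of the 49 genes had no further peak of any list with its summit inside the gene, apart from peaks within 1 kb of the TSS (55.1%, against 36.3% of all protein-coding genes). The median gene length was 11898 bp over the proteasome genes and 20695 bp over all protein-coding genes, and its part in this difference was not tested. The peaks at the coding start of PSMD6 count as further ones here. Further H3K27ac peaks were found at 17 genes in replicate 1 (34.7%, against 44.2% of all protein-coding genes) and at 20 in replicate 2 (40.8% against 46.7%). PSMB7, whose gene spans 63133 bp, held 11 and 13 of them together with 3 and 4 CTCF peaks. PSME4, with 106200 bp, held 8 and 5, and PSMD1, with 104601 bp, held 7 and 9. PSMD14, of 101506 bp, held 4 and 6. PSMA3, with 28919 bp, held 5 and 6, and PSMA6, with 25105 bp, held 4 and 6. PSMA8 had no histone-mark peak inside its 37873 bp but 2 CTCF peaks in each replicate.

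A CTCF peak near PSME1 and PSME2 had a fold enrichment of 37.7 in replicate 1 and 40.6 in replicate 2. Its summit lay 11623 and 11638 bp from the PSME2 start, beyond the start of PSME1. The CTCF peak at the start of PSME1 had 6.63 and 7.99.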
